A study of Mus musculus with 6 samples.

Results

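Mouse genes Olfr829 to Olfr986 form the main block of class II odorant receptor genes on chromosome 9. The rule took members by symbol alone, every number from Olfr829 to Olfr986 with or without a pseudogene suffix. The block itself was chosen with earlier results of these data known. In the table, 124 of the 1318 odorant receptor genes (40273 genes in all) met the rule. Of these, 122 could be placed in the annotation, GENCODE vM21 on GRCm38, and all 122 lie on chromosome 9; Olfr908 and Olfr964-ps1 were not placed. RNA came from the olfactory mucosa of male mice of the mixed background 129S6;C57BL/6J at postnatal day 30. In the 3 deletion samples the eC element was missing, 1005 bp of chromosome 7 (102916999 to 102918004) within the class I receptor cluster, and the 3 control samples were wild type. Whether 1 or both copies were deleted, and how the line was made, is not given in the sources used here. The question addressed here is how this class II block, on another chromosome than the element, looks in the mucosa with and without it.

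Odorant receptors sit in the cilia of olfactory sensory neurons and couple to a G protein. A mature neuron expresses 1 allele of 1 receptor gene, so the RNA level of a receptor gene in whole mucosa depends both on how many neurons chose it and on how much each makes, and bulk RNA cannot tell fewer cells from less RNA per cell. Class II receptors, the larger class in land vertebrates, signal through the olfactory G protein (Gnal), adenylyl cyclase 3 (Adcy3) and a cyclic nucleotide-gated channel (Cnga2), and their genes sit in clusters on many chromosomes, most with a coding sequence in 1 exon and untranslated exons upstream.

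The libraries held 30342763 to 49279931 assigned reads in the deletion group and 31100948 to 50906277 in the controls. Olfr571, whose annotated 5′ end lies within the element, had 0 reads in each deletion library, against 34 to 61 reads in the control libraries. All 12 markers of mature olfactory neurons were measured and none was at 0, with summed normalized counts of 405770 to 507920 in the deletion libraries and 451972 to 548645 in the controls; the tissue label held. The libraries stand in 2 sets that the labels do not name. Deletion replicates 1 and 2, with control replicate 1, had reads for 26564 to 27879 genes (set A), and deletion replicate 3, with control replicates 2 and 3, for 36197 to 37456 (set B). Set A holds more deletion than control libraries, so set-adjusted values (set added to the model) or values within a set are given beside many of the members' fold changes and shares. Fold changes and intervals that stand without them are from the fit without the set.

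The members lie in 2 runs separated by 17.4 Mb. The proximal run spans 1.45 Mb from Olfr829 to Olfr873 (chr9:18854933-20303599) and holds 40 members, 30 of them annotated as protein coding. The distal run spans 2.45 Mb from Olfr874 to Olfr986 (chr9:37745106-40190134) and holds 82 members, 77 of them protein coding. Of the placed members 107 are annotated as protein coding, 12 as unprocessed pseudogenes and 3 as polymorphic pseudogenes, which are intact in some strains only. Of the 16 members with a pseudogene suffix, 2 (Olfr839-ps1 and Olfr911-ps1) are annotated as protein coding, while Olfr910 and Olfr936, without the suffix, are polymorphic pseudogenes.

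Every member had a read in at least 1 library, and 107 had reads in all 6. Mean normalized counts over the 6 libraries, which the authors scaled by library, were at least 100 in 15 members, from 10 to 100 in 76, from 1 to 10 in 21 and below 1 in 12. Testing needed 10 or more normalized counts in 3 or more libraries, and 91 members reached it, 22 of the proximal and 69 of the distal run. The 33 below that limit hold 14 of the 15 annotated pseudogenes and 17 protein coding genes, among them Olfr829, the first member, at 3.73, 1.10 and 13.3 normalized counts in the deletion libraries and 3.70, 6.89 and 2.33 in the control libraries. Annotated pseudogenes took 2.30 ± 0.22% of the members' summed normalized counts in the deletion libraries and 1.86 ± 0.07% in the controls (SD, n = 3 each), most of it from Olfr910. By library the share was 2.40, 2.46 and 2.05% in deletion replicates 1 to 3 and 1.78, 1.88 and 1.92% in control replicates 1 to 3, a smaller gap in set B than in set A.

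**Figure D1:**
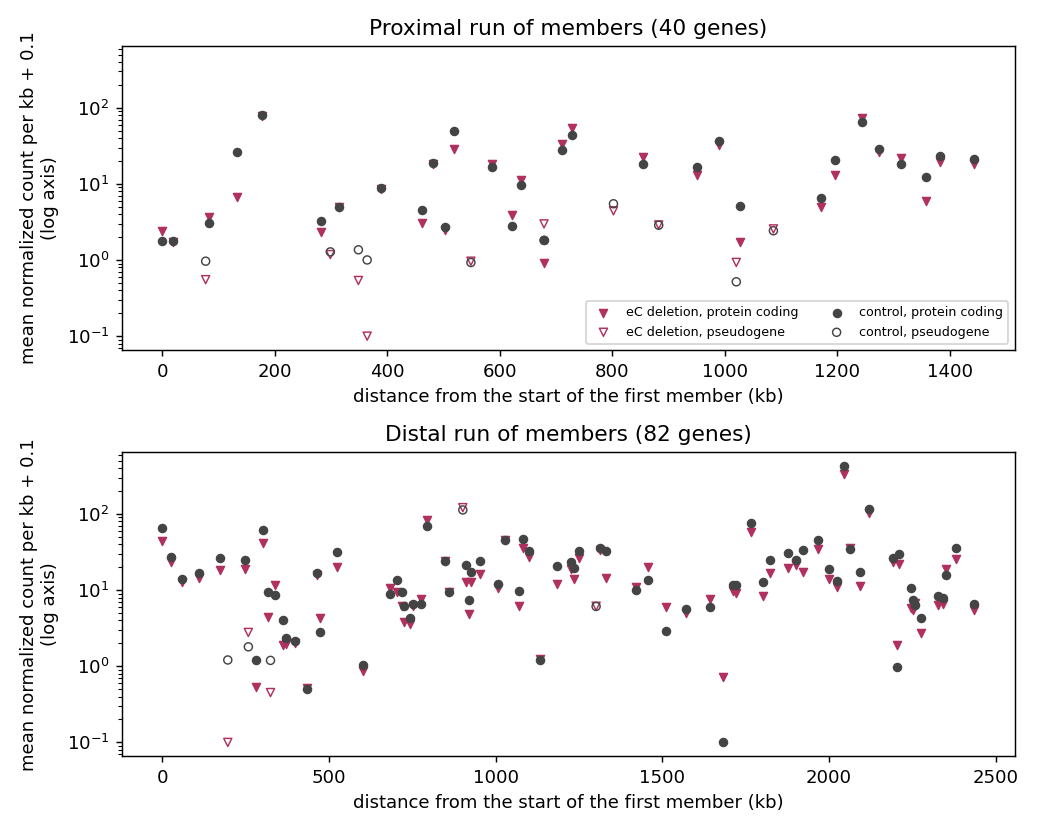
Mean normalized count per kb of exon length (plus 0.1, log axis) of each placed member against its distance in kb from the start of the first member of its run, with triangles for the eC deletion and circles for the control group, open where the gene is annotated as a pseudogene. Olfr969 in the distal run stands above all other members, at 334 per kb in the deletion group and 427 per kb in the controls, and the pseudogenes other than Olfr910 lie far below it.

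Levels between genes are compared per kb of annotated exon length. Olfr969 (chr9:39790945-39796635) had the highest level of the block. Its normalized counts were 256, 470.3 and 875 in deletion replicates 1 to 3 and 508, 714 and 823 in control replicates 1 to 3. The deletion libraries spanned the whole control range and went beyond it on both sides, and the difference did not pass (log2 fold change -0.50 ± 0.40, SE; 95% confidence interval -1.41 to 0.41; adjusted p = 0.982, limma). Olfr969 alone made up 8.54 ± 2.42% of the members' summed normalized counts in the deletion libraries and 9.91 ± 0.56% in the controls (SD, n = 3 each). The sets went opposite ways: in set A the share was 6.24 and 8.32% in the deletion libraries against 9.93% in the control, and in set B 11.1% in the deletion library against 9.35 and 10.5% in the controls. The set-adjusted log2 fold change of Olfr969 was -0.18. The 10 members with the highest mean counts together held 34.9 ± 0.53% and 34.7 ± 2.34% of the sum in deletion and control libraries (SD, n = 3 each); by library this was 34.3, 35.4 and 35.0% in the deletion group and 37.2, 32.6 and 34.2% in the controls.

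By control level the next members per kb were Olfr972, Olfr910 and Olfr835, at 103, 121 and 77.8 normalized counts per kb in the deletion libraries and 115, 113 and 80.9 per kb in the controls. By deletion level Olfr910 came before Olfr972, and Olfr912, at 82.1 per kb in the deletion libraries and 69.3 per kb in the controls, before Olfr835. Olfr972, which lies 69.8 kb beyond Olfr969, had 139.7, 177 and 193 normalized counts in the deletion libraries and 163, 203 and 200.02 in the controls. Olfr835, in the proximal run, had 189, 227 and 211 in the deletion libraries and 172, 256 and 226 in the controls. In both genes the groups overlapped, and the intervals of the log2 fold change (-0.53 to 0.21 and -0.42 to 0.34) kept below 1 in size. Olfr910 has an exon model of 933 bp, its coding length alone, so its level per kb is set against a shorter length than that of members with annotated untranslated exons.

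Olfr868, in the proximal run, had high levels with less spread. Its normalized counts were 255, 327 and 346 in the deletion libraries and 293, 285 and 257 in the controls, a log2 fold change of 0.14 ± 0.14 (SE; interval -0.17 to 0.46). Olfr957, Olfr874, Olfr884 and Olfr847 spread far more. Olfr957 had 56.0, 53.0 and 191 normalized counts in the deletion libraries and 62.8, 154 and 172 in the controls: deletion replicate 3 and control replicates 2 and 3, the libraries of set B, were all high, and the 3 libraries of set A were all low. Olfr874, the first gene of the distal run, had 68.0, 88.3 and 188 in the deletion libraries and 98.3, 185 and 235 in the controls, the same order of sets. Olfr884 had 68.7, 126 and 208 in the deletion libraries against 144, 199 and 248 in the controls, and Olfr847 38.1, 58.5 and 109 against 61.4, 145 and 151.

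**Figure D2:**
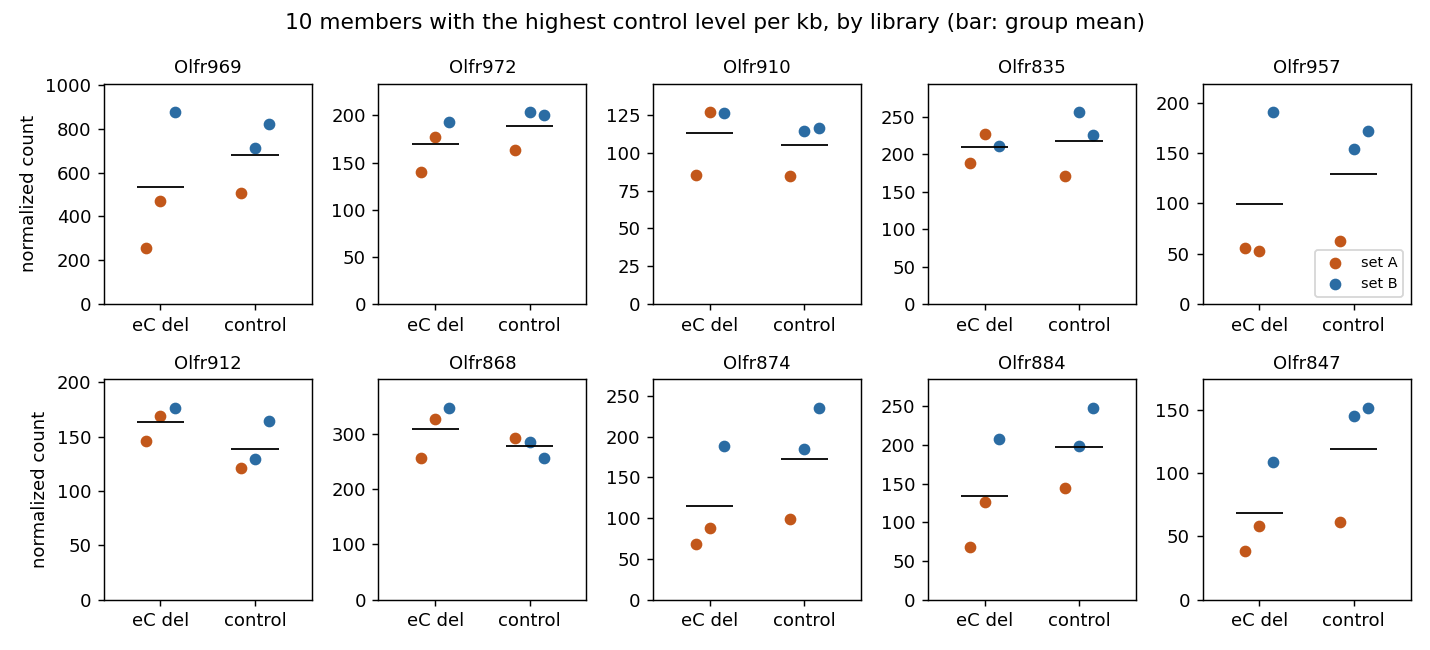
Normalized counts of the 10 members with the highest control level per kb in each library, deletion on the left and control on the right of each panel, with the group mean as a bar and the library set as the colour. In Olfr868, Olfr910, Olfr912 and Olfr835 the sets overlap, whereas Olfr969, Olfr972, Olfr957, Olfr874, Olfr884 and Olfr847 are higher in each library of set B than in each of set A.

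Olfr910 to Olfr913 lie within 0.13 Mb of each other in the distal run. Olfr910 and Olfr912 have been reported to respond to a thiazoline of male mouse urine and to differ between male and female mice kept apart. Olfr912 had 146, 169 and 176 normalized counts in the deletion libraries and 121, 130 and 164 in the controls (log2 fold change 0.25 ± 0.16, SE; interval -0.11 to 0.61; adjusted p = 0.982, limma). Olfr910 had 85.2, 127 and 127 in the deletion libraries and 85.0, 115 and 116 in the controls (0.09 ± 0.21, SE). Both receptors were thus measured at 85 or more normalized counts in every library, and their groups overlapped. Olfr910 was read at this level although the reference annotates it as a polymorphic pseudogene. Olfr913 was lower, at 48.6, 80.6 and 45.9 against 46.6, 66.6 and 60.5 in the controls. Olfr911-ps1 was the lowest of the 4, at 15.7, 28.7 and 37.4 in the deletion libraries and 25.1, 27.6 and 16.3 in the controls.

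Many members have close copies within the block. Over the 110 members with an annotated coding sequence, identity of coding bases had a median of 65.5% over 5995 pairs, of 67.6% within a run and 64.0% between the runs. The median identity of a member to its closest relative was 87.4%, and 37 of the 91 tested members had a relative at 90% or more, so the authors' counting could have split their reads and their levels are uncertain. The closest tested pairs were Olfr951 with Olfr954 (96.1% identity) and Olfr874 with Olfr875 (95.6%). The stretches of 90 coding bases that hold the most differences are shown for both pairs, read 5′ to 3′ on the plus strand of GRCm38 from GENCODE vM21 transcripts, with capitals at the bases that differ; elsewhere the copies are more alike.
Olfr951, chr9:39394483-39394572: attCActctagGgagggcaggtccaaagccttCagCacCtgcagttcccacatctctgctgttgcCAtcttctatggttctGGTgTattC
Olfr954, chr9:39462123-39462212: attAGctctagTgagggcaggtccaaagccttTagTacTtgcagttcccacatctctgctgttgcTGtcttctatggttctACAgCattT
Olfr874, chr9:37746660-37746749: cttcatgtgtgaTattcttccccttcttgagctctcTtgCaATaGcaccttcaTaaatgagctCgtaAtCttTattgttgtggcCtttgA
Olfr875, chr9:37773185-37773274: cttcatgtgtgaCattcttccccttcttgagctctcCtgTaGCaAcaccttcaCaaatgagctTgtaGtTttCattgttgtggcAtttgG
Each pair differs at 13 of these 90 bases, out of 37 differences between Olfr951 and Olfr954 over 942 coding bases and 41 between Olfr874 and Olfr875 over 930.

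The copies differed in mean level per kb, and the pairs were unlike in how far they shared a pattern over the libraries. Per kb Olfr951 had 7.49 in the deletion group and 5.83 in the controls, and Olfr954 had 9.71 and 11.5. Olfr874 had 43.6 and 65.6 per kb, and Olfr875 had 23.4 and 27.3. All of these are uncertain if reads of close copies were split. Olfr951 had 15.7, 9.94 and 18.1 normalized counts in the deletion libraries and 13.3, 12.6 and 8.14 in the controls, with no order between the sets. Olfr954 had 19.4, 32.0 and 44.7 in the deletion libraries and 21.4, 44.8 and 47.7 in the controls. Olfr875 had 19.4, 37.5 and 86.9 in the deletion libraries and 37.7, 58.6 and 70.9 in the controls, below Olfr874 in every library and, like it, higher in each library of set B than in each of set A.

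RefSeq promoter windows (GRCm38.p6; 250 bases before to 50 after an annotated start) matched 93 members. In 61 of their 94 windows the start is the ATG itself, and those windows show coding starts, not transcription starts. Leaving these out, 29 windows of 28 members had a start within 100 bases of a GENCODE transcript start. The homeodomain motif TAATNA, the kind of site bound by Lhx2, was found on either strand in 21 of the 29 (72.4%), and in 26.5% of all 32851 windows. The receptor windows of the whole genome were not filtered in this way, so they are set against all 94 member windows: 64.9% of these held the homeodomain motif, and 65.8% of all 948 receptor windows did. The Ebf motif CCCNNGGG, which reads the same on both strands, was found in 1 of the 29 (3.45%), which is 1.06% of the 94 member windows, against 3.06% of receptor windows and 13.7% of all windows. The windows differ in base composition, with a median GC content of 34.3% in the 29 and 52.7% over all, which alters how often either motif occurs. Shown are Olfr868, of even level between libraries, Olfr902, of uneven level, and Olfr983, the window with Ebf matches; capitals mark TAATNA and CCCNNGGG matches on either strand.
Olfr868, plus strand, chr9:20098376-20098675: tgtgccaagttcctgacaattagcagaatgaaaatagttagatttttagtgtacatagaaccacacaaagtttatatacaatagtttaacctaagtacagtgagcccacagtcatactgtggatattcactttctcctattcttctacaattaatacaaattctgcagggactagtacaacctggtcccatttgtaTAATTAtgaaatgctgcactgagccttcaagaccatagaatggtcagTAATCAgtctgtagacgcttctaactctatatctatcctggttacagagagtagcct
Olfr902, plus strand, chr9:38448542-38448841: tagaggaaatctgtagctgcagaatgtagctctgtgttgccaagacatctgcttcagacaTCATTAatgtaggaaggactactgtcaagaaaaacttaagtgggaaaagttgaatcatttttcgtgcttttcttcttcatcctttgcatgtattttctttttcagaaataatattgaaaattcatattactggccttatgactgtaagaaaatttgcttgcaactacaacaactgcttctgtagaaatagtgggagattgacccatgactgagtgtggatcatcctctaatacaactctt
Olfr983, minus strand, chr9:40093509-40093808: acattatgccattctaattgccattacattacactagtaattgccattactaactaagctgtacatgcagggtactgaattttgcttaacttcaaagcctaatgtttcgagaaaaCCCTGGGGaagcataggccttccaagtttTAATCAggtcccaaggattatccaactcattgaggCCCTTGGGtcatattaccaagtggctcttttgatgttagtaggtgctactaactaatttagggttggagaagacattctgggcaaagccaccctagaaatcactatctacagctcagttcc
Olfr868 holds 2 homeodomain matches and no Ebf match, Olfr902 has 1 and none, and Olfr983 has 1 and 2. A match is a description of letters, not a site shown to be bound. Olfr983 had 26.9, 53.0 and 39.8 normalized counts in the deletion libraries and 40.7, 65.4 and 39.5 in the controls.

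No member passed the test in the deletion group. Of the 91 members tested, 0 rose and 0 fell (adjusted p under 0.05 over all 20368 genes tested, limma), where 0.0736% of all genes passed, 0.0295% higher and 0.0442% lower. EdgeR and DESeq2 on the recovered reads also called 0 of the 91, against 0.0736% and 0.221% of all genes, and so did limma with the set in the model (0.177% of all genes), with replicate numbers as a block (0.226%) and without the filter (0.0447% of genes, 124 members). Of the 124 members, 110 had an adjusted p-value in the authors' deposited table, and none of these was under 0.05, where 33 of 30107 genes (0.11%) were. An unadjusted p under 0.05 was reached by 1 member, Olfr867, by limma, against 2.7% of all genes, and by 1 member by edgeR, against 2.68%. Without deletion replicate 3 an unadjusted p under 0.05 was reached by 27 members (29.7%), against 8.51% of all genes. Without control replicate 1 it was reached by 13 (14.3%), against 6.91%, and with replicate numbers as a block by 17 (18.7%), against 10.9%. The first omission leaves only set A deletion libraries and the second only set B controls, so group and set are harder to tell apart in both. With the set in the model it was reached by 2 (2.20%), against 3.66%. None of these members passed after adjustment. With so few genes called anywhere after adjustment, a count of 0 among 91 is close to the background.

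The intervals, from the fit without the set, say how large a difference that fit leaves room for with 3 against 3 libraries. The 95% confidence interval of the log2 fold change had a median half-width of 0.86 over the 91 members, from 0.31 to 3.62. In 28 of the 91 it lay wholly between -1 and 1, that is within a doubling or halving, as it did in 81.8% of all genes tested. In the proximal run 14 of 22 members, and in the distal run 14 of 69, had so narrow an interval. These widths include the spread between the sets, which was larger in the distal run (median difference 0.83 against 0.44). With the set in the model the SE of Olfr957 went from 0.55 to 0.17, and that of Olfr873 from 0.15 to 0.17. Fitted log2 fold changes ran from -1.52 to 1.30, and 5 members were beyond 1 in size: Olfr834, Olfr938, Olfr963 and Olfr905 below 0 and Olfr945 above. Set-adjusted, these 5 were at -0.70, -0.55, -0.64, -0.48 and 1.00, in that order.

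**Figure D3:**
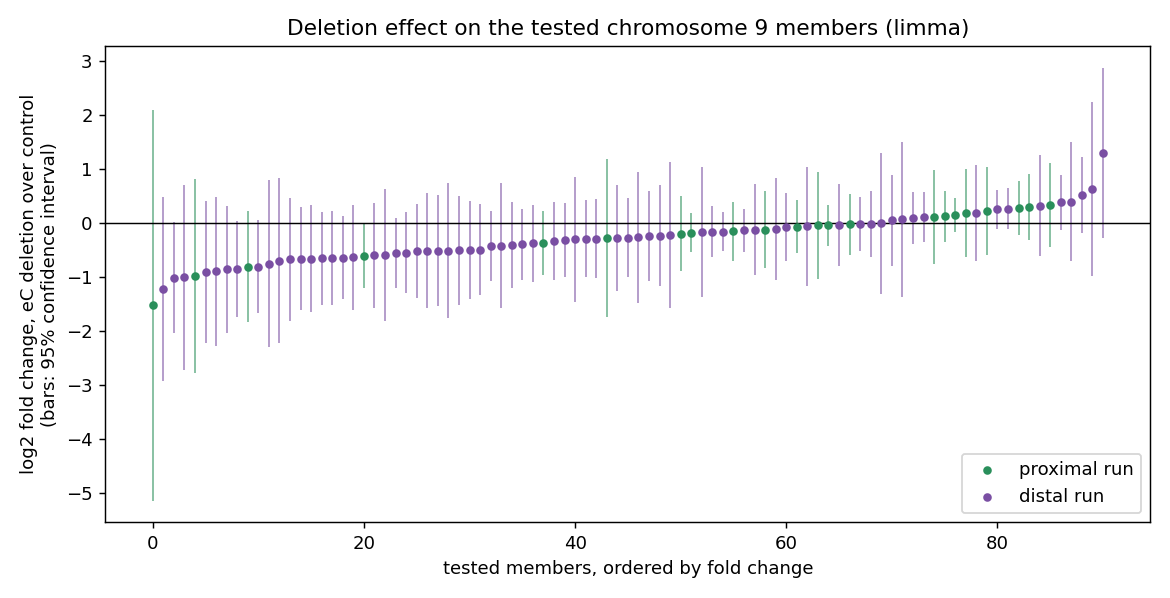
Log2 fold change of the eC deletion over control with its 95% confidence interval for the 91 tested members, ordered by fold change, green for the proximal and purple for the distal run. Values are from the fit without the set. They run from -1.52 to 1.30, most lie below 0, and the interval of 1 member, Olfr867, leaves out 0.

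The members with the smallest unadjusted p that were lower in the deletion group were Olfr867, Olfr963, Olfr930 and Olfr978. Olfr867, in the proximal run, had 52.3, 55.2 and 70.0 normalized counts in the deletion libraries and 65.1, 126 and 89.5 in the controls (log2 fold change -0.61 ± 0.26, SE; interval -1.21 to -0.01; adjusted p = 0.982, limma). Deletion replicate 3 lay above control replicate 1, so the groups overlapped. Olfr963 had 19.4, 33.1 and 62.8 in the deletion libraries and 44.4, 91.8 and 86.1 in the controls (-1.01 ± 0.45, SE). Olfr930 had 8.96, 16.6 and 24.1 in the deletion libraries and 25.9, 32.1 and 27.9 in the controls (-0.85 ± 0.39, SE), and Olfr978 had 8.96, 8.83 and 13.3 against 14.05, 19.5 and 23.3 in the controls (-0.81 ± 0.37, SE). In Olfr930 and Olfr978 every deletion library lay below every control library. Set-adjusted, these 4 fold changes were -0.43, -0.64, -0.66 and -0.62, and none passed.

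On the higher side the smallest unadjusted p belonged to Olfr945, Olfr944, Olfr887 and Olfr912. Olfr945 had 11.2, 9.94 and 12.1 normalized counts in the deletion libraries and 11.1, 1.148 and 3.49 in the controls, a log2 fold change of 1.30 ± 0.68 (SE; interval -0.27 to 2.88; adjusted p = 0.982, limma). Control replicate 1 equalled the deletion libraries, and control replicates 2 and 3 rest on few reads. Its neighbour Olfr944 had 22.4, 28.7 and 41.0 in the deletion libraries and 22.2, 18.4 and 20.9 in the controls (0.52 ± 0.30, SE), with no overlap but with deletion replicate 1 next to control replicate 1. Olfr887 had 55.3, 87.2 and 83.3 in the deletion libraries and 55.4, 51.7 and 62.8 in the controls (0.38 ± 0.22, SE), with deletion replicate 1 inside the control range. Set-adjusted, the fold changes of Olfr945, Olfr944, Olfr887 and Olfr912 were 1.00, 0.61, 0.43 and 0.32.

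Among the tested members 2 (Olfr944 and Olfr984) were higher in every deletion library than in every control library, against 3.66% of all genes, and 3 (Olfr920, Olfr930 and Olfr978) were lower in each, against 4.02% of all genes. As shares of 91 these are 2.20% and 3.30%, near the background. Olfr984, named after its values were seen, had 91.1, 100.5 and 107 normalized counts in the deletion libraries and 70.2, 90.7 and 88.4 in the controls.

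The fitted values as a list lay below 0. Of the 91 members 70 (76.9%) had a log2 fold change below 0, with a median of -0.27, against 47.5% of all genes with a median of 0.01. Other class II receptors had a median of -0.16 (70.5% of 809 below 0), those of chromosome 2 of -0.18 (251 genes) and class I receptors of -0.75 (117 genes). The set-adjusted median of the members was -0.06, with 50 of 91 below 0, and the medians were -0.05 for other class II and -0.39 for class I receptors. Within set A, with 2 deletion libraries and 1 control, the members' median was -0.10, and within set B, with 1 deletion library and 2 controls, it was -0.003. Without deletion replicate 1 the median was -0.04, and without control replicate 1, which leaves only set B controls, it was -0.55. Some cell type marker lists also had medians away from 0, although none of their genes passed (limma). The median log2 fold change was -0.10 for 12 mature neuron markers (single genes from -0.24 in Gng13 to 0.10 in Cngb1). For 3 markers of respiratory epithelium it was 0.32, for 4 of horizontal basal cells 0.23 and for 3 of erythroid cells -0.43. Set-adjusted, these medians were -0.03, 0.21, 0.04 and -0.54. The other cell type lists had medians from -0.06 (macrophages and neutrophils) to 0.17 (microvillous cells). Set-adjusted, those lists ran from -0.07 (sustentacular cells) to 0.03 (macrophages and neutrophils). The part of the cell types in the members' values was not tested.

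By run the values overlapped, and the difference between runs was not tested. The proximal run had a median log2 fold change of -0.06 (22 tested; quartiles -0.26 and 0.14), or 0.10 set-adjusted, and the distal run a median of -0.32 (69 tested; quartiles -0.59 and -0.07), or -0.12 set-adjusted. Summed normalized counts of the proximal run were 1377, 1780 and 2036 in the deletion libraries and 1506, 2057 and 1945 in the controls. Those of the distal run were 2723, 3865 and 5864 in the deletion libraries and 3607, 5568 and 5917 in the controls. In both runs the highest deletion library stood beside the controls of its own set.

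In many members the levels of the libraries followed the sets. Levels on the log2 scale were higher in set B than in set A in 85 of the 91 members, with a median difference of 0.77. In 53 of the 91 (58.2%) every set B library lay above every set A library, as in 15.8% of all genes. By run this held in 7 of 22 proximal (31.8%) and 46 of 69 distal members (66.7%). The median difference was 0.44 in the proximal and 0.83 in the distal run, 0.32 in other class II receptors and 1.26 in class I receptors. The median deviation of the members from their mean over the 6 libraries was -0.59, -0.18 and 0.38 in deletion replicates 1 to 3 and -0.28, 0.38 and 0.36 in control replicates 1 to 3. Over all genes tested these medians stayed between -0.01 and 0.01. The sets were defined by how many genes were detected, so these differences are descriptions, and their cause was not tested.

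**Figure D4:**
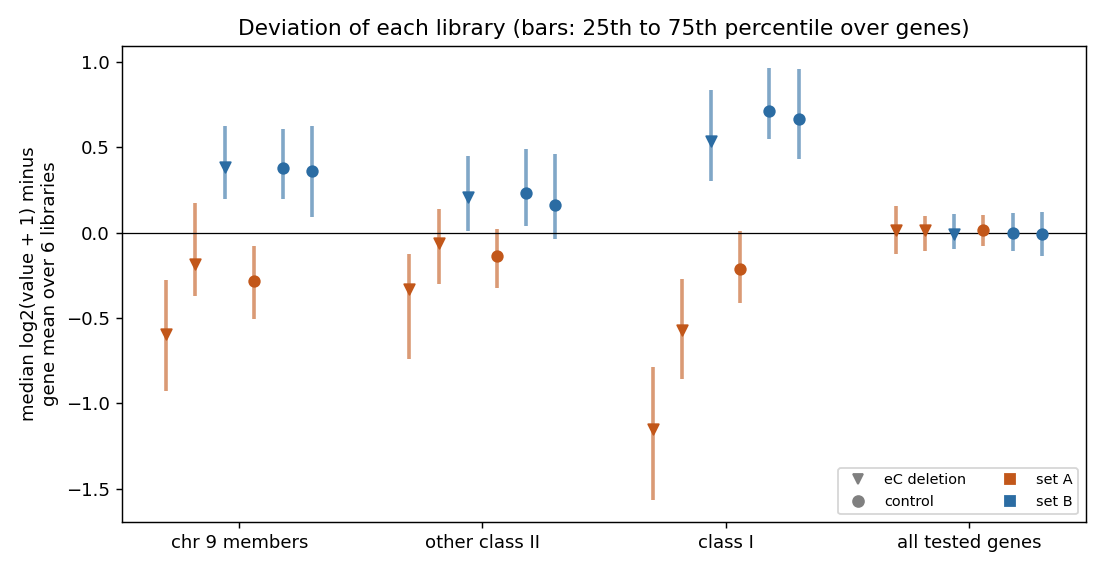
Median deviation of each library from the gene mean over the 6 libraries on the log2(value + 1) scale, with bars from the 25th to the 75th percentile over genes, for the chromosome 9 members, other class II receptors, class I receptors and all tested genes; triangles are deletion and circles control libraries, coloured by library set. For the members the set A libraries lie between -0.59 and -0.18 and the set B libraries between 0.36 and 0.38, in both groups.

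Among members with a mean of at least 20 normalized counts, the widest gaps on the log2 scale between neighbouring libraries were in Olfr905, Olfr902, Olfr938, Olfr957 and Olfr878. Olfr905 had 2.99, 15.5 and 31.4 normalized counts in the deletion libraries and 14.05, 33.3 and 32.6 in the controls. Olfr902, its neighbour at 20.5 kb, had 4.48, 26.5 and 29.0 in the deletion libraries and 17.7, 42.5 and 25.6 in the controls. In both genes, and in Olfr878 (34.4, 76.2 and 122 against 80.6, 108 and 148 in the controls), deletion replicate 1 stood alone below the other 5 libraries. Olfr938 had 6.72, 8.83 and 35.0 in the deletion libraries and 11.8, 42.5 and 61.6 in the controls, and its gap parted set B from set A. Of the tested members below that mean, Olfr834 had a wider gap than any of these, at 2.35, and Olfr837 (1.73) and Olfr945 (1.28) had gaps of the same order.

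As a share of all odorant receptor reads the block was similar in both groups. The members took 4.44, 4.93 and 5.80% in deletion replicates 1 to 3 and 4.58, 5.42 and 5.81% in control replicates 1 to 3, from 5119 to 6550 and 6651 to 6920 member reads. The groups averaged 5.05 ± 0.69% and 5.27 ± 0.63% (SD, n = 3 each), and the difference of -0.22 percentage points was smaller than either SD. Within set A the share was 4.68% on average in the deletion libraries and 4.58% in the control, and within set B 5.80% in the deletion library and 5.62% on average in the controls. All receptor reads include class I receptors, whose median log2 fold change was -0.75 (-0.39 set-adjusted). Over class II reads alone the groups averaged 5.38 ± 0.87% and 5.75 ± 0.79% (SD, n = 3 each). That difference was -0.37 percentage points, and it was 0.027 within set A and 0.15 within set B. All receptor reads together made up 0.309 ± 0.061% of reads in the deletion libraries and 0.354 ± 0.051% in the controls (SD, n = 3 each), a difference of -0.045 percentage points that was -0.019 within set A and -0.011 within set B.

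The genes that carry a receptor's signal did not pass either. Of 17 signalling genes, all tested, 0 rose and 0 fell (median log2 fold change -0.06, set-adjusted -0.02). Gnal had 70324 ± 8878 normalized counts in the deletion libraries and 73436 ± 8995 in the controls, and Adcy3 43783 ± 3542 and 43468 ± 3792 (SD, n = 3 each). Of 5 genes of receptor trafficking, such as Rtp1 and Rtp2, which bring class II receptors to the cell surface, 0 passed (median -0.01, set-adjusted -0.02), and of 17 genes of receptor choice 0 passed (median 0.03, set-adjusted 0.01). Lhx2, the LIM-homeodomain factor of receptor gene expression, had 6011 ± 249.5 and 5912 ± 165 in deletion and control libraries (SD, n = 3 each), a log2 fold change of 0.02 ± 0.06 (SE).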

How the data were processed

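Reads of ribodepleted, stranded total RNA libraries were processed by the submitters with STAR 2.6.0 and DESeq2 on GRCm38.p6, per the submitters' processing notes; which program counted reads, on which annotation and strand, is not given in the sources used here. The authors deposited a signal per gene and library, normalized counts, beside their own log2 fold changes, p-values and test statistic (a score). All values were whole multiples (100%, within 0.001) of 1 read, so reads were recovered.

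Positions came from GENCODE vM21 (39985 of 40273 identifiers, versions dropped). Limma 3.58.1 (trend, R 4.3.3) was run on log2(value + 1), which understates the change of low genes, for genes with at least 10 in at least 3 libraries; edgeR 4.0.16 and DESeq2 1.42.0 on recovered reads were alternatives. P-values were adjusted by Benjamini-Hochberg over all genes tested. The scripts were tested on simulated counts that held no library sets, so that test does not show how they perform with the sets seen here. The labels do not say that samples are separate animals, so p-values measure the spread between these samples, which may be technical. Libraries of a group differed beyond sampling noise (chi-square per gene 20.6 to 53.2).

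Members, gene lists and library sets were chosen with earlier results of these data known. Named members were the 10 with the highest control level per kb, the 4 with the smallest p in each direction, the 5 with the widest gap among those with a mean of at least 20, Olfr910 to Olfr913, the 2 closest tested pairs (by coding bases, as protein sequences were not used here) and the ends of each run.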

Additional observations from a re-analysis of the deposited data

How the results depend on the processing

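Of the 91 tested members 0 passed under each of the 13 alternatives (2 other tests, another pseudocount, no filter, TMM scaling, 6 omissions, the replicate block and the library set). The count over all genes was 15, and it was 45 with DESeq2, 36 with set in the model and 46 with the replicate block; without 1 library it ran from 6 to 24. Same-numbered libraries did not pair throughout (correlations of deviations 0.65, -0.34 and 0.66 for numbers 1, 2 and 3). The replicate block left 0 members past the threshold and 17 of 91 (18.7%) with an unadjusted p under 0.05, against 10.9% of all genes, and changed no call among the members. The members' median log2 fold change stayed below 0, from -0.55 to -0.003. It moved from its value of -0.27 by less than the SD between libraries of 0.46. That SD includes the spread between the sets and is wide beside the median itself, so it cannot show that the median is steady. The difference in share of receptor reads ran from -0.59 to 0.093 percentage points without 1 library, was -0.37 over class II reads, and was 0.099 and 0.18 within sets A and B. Of 364 values of 28 named members 345 kept their sign, and the others were small. With set in the model Olfr835, Olfr957 and Olfr954 were at 0.043, 0.013 and 0.081. Olfr913 was at 0.0073 with edgeR and 0.0064 with DESeq2, and without 1 library between -0.27 and 0.13. Without 1 library Olfr910 ran from -0.056 to 0.28, Olfr835 from -0.20 to 0.084, Olfr902 from -1.18 to 0.042, Olfr911-ps1 from -0.075 to 0.53, Olfr954 from -0.59 to 0.076 and Olfr875 from -0.97 to 0.083. With 5119 to 6920 member reads per library, members near 10 normalized counts rest on few reads.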

Other observations

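Chromosome 9 also holds odorant receptors numbered outside the range Olfr829 to Olfr986. Of 24 such genes on chromosome 9, 21 were tested and 0 passed by limma (0 with an unadjusted p under 0.05). Their median log2 fold change was -0.31, or -0.10 with set in the model. Many of the 24 lie between members inside the 2 runs, so they are not apart from the block by position. Examples are Olfr77 (chr9:19916865-19929124) in the proximal and Olfr250 (chr9:38366896-38371355) in the distal run. Olfr160, known as M72 and a receptor of acetophenone, lies before Olfr874 (chr9:37708964-37716250) and had 73.95, 127 and 194 normalized counts in the deletion libraries and 108, 220.4 and 265 in the controls. Its close relative Olfr151, known as M71 and used as a model receptor, had 1.49, 0 and 2.41 in the deletion libraries and 0.74, 1.148 and 3.49 in the controls, the value of 0 to 3 reads a library.

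Olfr834 in the proximal run was present in some libraries of both groups and nearly absent in others. It had 16.4, 0 and 2.41 normalized counts in the deletion libraries and 0, 31.0 and 43.0 in the controls, and its interval was the widest of the block. In the distal run Olfr943, Olfr945 and Olfr951 were among the 6 tested members that were not higher in set B. Olfr943 had 92.6, 100.5 and 77.3 normalized counts in the deletion libraries and 84.3, 101 and 66.3 in the controls.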
